A study of Homo sapiens with 9 samples.

Results

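Methionine and cysteine metabolism was followed at the level of mRNA through 10 genes, chosen by name: CBS and CTH, which encode the enzymes of transsulfuration, MAT2A, MAT2B, AHCY and MTR of the methionine cycle, and MPST, CDO1, CSAD and SUOX, which act on cysteine and its sulfur. All 10 were found among the 58735 genes of the deposited tables, and 8 had enough counts to be among the 16188 genes tested. CBS and CDO1 did not. The RNA came from MDA-MB-231 cells, an established human triple-negative breast cancer line, in 3 groups of 3 libraries each. Vehicle cells received DMSO. Erastin-R cells, or erastin survivors, outlived rising concentrations of erastin, an inhibitor of the cystine transporter system xc-, and RSL3-R cells, or RSL3 survivors, outlived rising concentrations of RSL3, an inhibitor of glutathione peroxidase 4. Both drugs cause ferroptosis, a cell death driven by lipid peroxidation. No allele or genotype other than that of the line is given, the labels hold neither dose nor time, and no source used here says whether the survivors of a group descend from 1 or many cells. Nor does any say that the libraries of a group were separate cultures, so the p values measure the spread between these libraries, which may be technical.

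The methionine cycle turns methionine into S-adenosylmethionine, the methyl donor of the cell, then into S-adenosylhomocysteine once the methyl group is spent, then into homocysteine, which is either methylated back to methionine or passed on to transsulfuration. In transsulfuration, CBS joins homocysteine with serine to form cystathionine, and CTH cleaves cystathionine to release cysteine, the amino acid that limits glutathione synthesis. This route provides cysteine without uptake of cystine, which is the step that erastin blocks. Cysteine not used for protein or glutathione is oxidized towards taurine and sulfate or gives up its sulfur as persulfide or hydrogen sulfide.

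Total counts per library ranged from 15405102 to 17273464, and levels are given as CPM, the count of a gene in parts per 1000000 of the library total after scaling by edgeR's TMM factors. VIM, CD44 and EGFR, markers expected in the line, summed to between 2089 and 2396 CPM in every library. VIM made up most of this sum, at 1475, 1445 and 1347 CPM on average in vehicle, erastin-R and RSL3-R libraries. EGFR and CD44 moved in opposite directions. In RSL3 survivors the log2 fold change was 0.78 for EGFR (edgeR adjusted p = 5.07e-07) and -0.43 for CD44 (edgeR adjusted p = 3.42e-05). In erastin survivors it was 0.26 for EGFR (edgeR adjusted p = 0.00455) and -0.15 for CD44 (edgeR adjusted p = 0.0343). For VIM it was -0.03 in erastin and -0.13 in RSL3 survivors, and neither passed the test. Mesenchymal triple-negative cells lack ESR1, PGR, CDH1 and EPCAM or hold them at low levels. These genes summed to 3.09 to 4.05 CPM in vehicle, 1.46 to 2.92 CPM in erastin-R and 5.41 to 6.02 CPM in RSL3-R libraries. CDH1 among them was higher in RSL3 survivors, by 1.58 on the log2 scale (edgeR adjusted p = 0.0013). CDH1 remained low there, with a mean of 3.44 CPM beside 1.14 CPM in vehicle libraries. EPCAM moved the opposite way in those cells, by -0.37, without passing the test. Against vehicle, CDH1 at -0.59 and EPCAM at -0.70 were both lower in erastin survivors, and neither passed. ESR1 and PGR were not tested. Markers of leukocytes, endothelium and fibroblasts (PTPRC, PECAM1 and COL1A1) summed to 16.7 to 19.0 CPM in vehicle, 10.1 to 12.04 CPM in erastin-R and 23.3 to 25.0 CPM in RSL3-R libraries. No marker was at 0 in a whole group. In erastin survivors PECAM1 fell by 2.47 on the log2 scale (edgeR adjusted p = 8.28e-08), while PTPRC at -0.29 and COL1A1 at 0.19 did not pass. In RSL3 survivors PTPRC rose by 1.67 (edgeR adjusted p = 0.00818), from 0.42 to 1.37 CPM on average. PECAM1 at 0.36 and COL1A1 at 0.39 also passed there. The part of either marker list in any result was not tested. The first erastin-R library stood apart from the other 2 of its group. Its mean squared differences from them were 24.5 and 23.7 times the variance expected from counting. For every other pair of libraries within a group the ratio was 2.45 to 5.40. Changes in erastin survivors against vehicle are therefore also given without the first erastin-R library. This was done for each tested gene of the set and each further pathway gene named for a log2 fold change of at least 1. It was not done for markers, overlapping genes or other genes named.

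Against vehicle, CTH rose in both survivor groups by more than any other of these genes, and of the other calls, all with a log2 fold change under 1 in size, MTR alone passed in both groups. In erastin survivors 3 of the 8 tested genes rose (CTH, MTR and MPST), 2 fell (MAT2A and SUOX) and 3 were not called (AHCY, MAT2B and CSAD), with a call taken at an adjusted p of 0.05 in edgeR's quasi-likelihood test. Among all genes tested in that comparison 27.1% were higher and 26.8% lower. In RSL3 survivors 2 rose (CTH and MTR), 1 fell (AHCY) and 5 were not called, where 23.8% of all genes were higher and 24.9% lower. The shares called among these few genes were thus near those of all genes, and the 2 comparisons share their vehicle libraries.

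With a log2 fold change of at least 1 required besides, CTH was the 1 gene called in erastin survivors, against 6.70% of all genes higher and 6.66% lower, and again in RSL3 survivors, against 6.02% higher and 4.08% lower. On the lower side that rule called 0 of the 8 genes in either comparison by edgeR, by DESeq2 and by limma, while edgeR's unadjusted p passed 0.05 for 2 lower genes in erastin survivors and 1 in RSL3 survivors. The median log2 fold change over the 8 genes was 0.08 in erastin survivors and 0.05 in RSL3 survivors, beside -0.00 and 0.01 over all genes tested. The libraries did not overlap between the groups for 5 of the 8 genes in each comparison, where 57.9% of all genes in erastin survivors and 61.9% in RSL3 survivors did not.

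**Figure D1:**
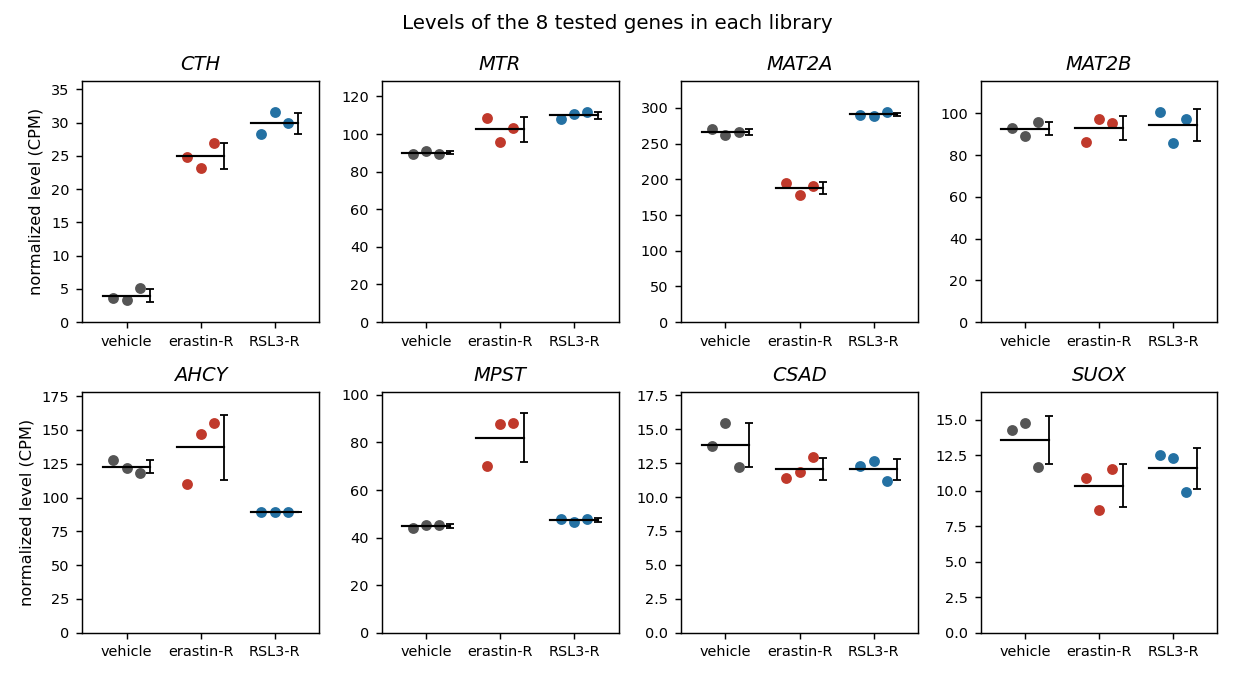
Level of each of the 8 tested genes in every library, in CPM on axes that start at 0, for vehicle (grey), erastin-R (red) and RSL3-R (blue) libraries. Points are libraries, the line is the mean and the bar the SD of 3. CTH lies between 3.27 and 5.12 CPM in vehicle and between 23.1 and 31.5 CPM in the survivors, MAT2A is lowest in erastin-R, AHCY lowest in RSL3-R, and MPST highest in erastin-R libraries.

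CTH, cystathionine gamma-lyase, which releases cysteine from cystathionine, lies on chromosome 1 from 70411218 to 70439851 on the plus strand of GRCh38 (ENSG00000116761). The stretch that ends at the base before its annotated start is shown because CTH is the gene that changed most, with the letters TGACGT in capitals, a cyclic AMP response element core chosen after the sequence was seen. It is chr1:70411018-70411217, plus strand, from RefSeq's promoter table for GRCh38.p14.
CTH: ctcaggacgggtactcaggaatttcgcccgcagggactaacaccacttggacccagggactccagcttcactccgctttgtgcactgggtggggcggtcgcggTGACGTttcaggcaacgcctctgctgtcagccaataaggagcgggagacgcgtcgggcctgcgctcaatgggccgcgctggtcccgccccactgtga

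The table held 15 windows of 300 bases for 9 of the 10 genes, all but MPST. The sequence TGATGNAA, the core of the C/EBP-ATF response element, was searched on both strands and was in 0 of these 15 windows, while 3.62% of the 35116 windows of the table hold it. TGACGT was in the CTH window alone among the 15, starting at base 104, and 7.98% of all windows hold it on either strand. A match or its lack describes these letters only.

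In the vehicle libraries CTH stood at 3.58, 3.27 and 5.12 CPM, from 60, 53 and 83 reads. In the erastin-R libraries it stood at 24.8, 23.1 and 27.0 CPM, and in the RSL3-R libraries at 28.3, 31.5 and 29.9 CPM, from 363 to 511 reads. Every survivor library lay above every vehicle library, and the erastin-R libraries below the RSL3-R ones. The log2 fold change was 2.64 ± 0.14 (SE, n = 3 per group) in erastin survivors, a 6.25-fold increase with an edgeR adjusted p of 6.61e-09. In RSL3 survivors it was 2.90 ± 0.14, a 7.49-fold increase with an edgeR adjusted p of 1.80e-09. Each of these exceeded the log2 fold change of 99.7% of the genes tested. Without the first erastin-R library the value in erastin survivors was 2.65 (edgeR adjusted p = 1.04e-15). As the libraries average over many cells, more cells with CTH mRNA and more CTH mRNA per cell cannot be told apart.

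Between the survivor groups, CTH differed by a log2 fold change of 0.26 (RSL3-R over erastin-R, 95% interval 0.01 to 0.51), with an edgeR adjusted p of 0.0804. The 3 genes whose log2 CPM followed CTH most closely over the 9 libraries were UHRF1BP1 (Pearson's r = 0.994), GFPT1, the first enzyme of hexosamine synthesis (r = 0.993), and KDM7A, a histone demethylase (r = 0.993). KDM7A had mean levels of 9.82, 50.04 and 55.6 CPM in vehicle, erastin-R and RSL3-R libraries, and GFPT1 of 84.2, 242 and 255 CPM. UHRF1BP1 had 62.1, 117 and 123 CPM. These are the closest of 16188 genes in libraries that fall into 3 groups, so r mostly describes the difference between the groups.

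CBS, cystathionine beta-synthase, which makes the substrate of CTH, could not be measured with these counts. It had 0 reads in 8 libraries and 1 read in the second RSL3-R library. CBS lies on chromosome 21 from 43053191 to 43076943 on the minus strand (ENSG00000160200), and the annotation holds a near-identical copy, CBSL, on the same chromosome from 6444869 to 6468040. CBSL had 1 read in the third erastin-R library and 0 in the other 8. The transcripts CBS-203 and CBSL-206 of GENCODE 29 are each 2453 bases long and differ at 1 base, and their first 60 coding bases, shown with the start codon in capitals because they make the identity visible, are the same.
CBS: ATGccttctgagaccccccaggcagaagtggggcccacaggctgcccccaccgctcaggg
CBSL: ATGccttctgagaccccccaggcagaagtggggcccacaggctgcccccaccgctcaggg

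Of the distinct 50-base words of CBS-203, 97.9% also occur in CBSL, and over the 4 transcripts CBS-201 to CBS-204 which are the longest, the share ranged from 94.5% to 97.9%. Over the other 4 transcripts, of 573 to 828 bases, it ranged from 49.3% to all words, and over all CBS transcripts together 54.5% of the distinct words are shared with another gene. The study counted uniquely mapped reads only. A read that lies wholly in a shared stretch has 2 equally good positions and is not counted for either copy, so neither the level of CBS nor a change of it can be read from 0 or 1 read. For reads that map to 1 place, 3 counts, the limit that a count of 0 allows, correspond to 0.175 to 0.193 CPM, and this covers counting error only.

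MAT2A, the catalytic subunit of methionine adenosyltransferase, which makes S-adenosylmethionine, had the highest level per length of the 8 tested genes and fell in erastin survivors. It lies on chromosome 2 from 85539165 to 85545280 on the plus strand (ENSG00000168906). The vehicle libraries had 270, 262 and 266 CPM, the erastin-R libraries 195, 178 and 191 CPM, and the RSL3-R libraries 290.3, 289 and 294 CPM. All erastin-R libraries lay below and all RSL3-R libraries above the vehicle range. MAT2A fell by 0.50 ± 0.05 on the log2 scale in erastin survivors (edgeR adjusted p = 4.16e-06, and -0.53 without the first erastin-R library). In RSL3 survivors the log2 fold change was 0.13 (95% interval 0.01 to 0.25), with an edgeR adjusted p of 0.0611 that passed 0.05 under 4 alternatives, at 0.00784 without the first erastin-R library among them.

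Part of the MAT2A exons, 12.4% of their bases, overlaps exons of GGCX, the vitamin K-dependent carboxylase gene on the opposite strand. GGCX had mean levels of 70.2, 53.3 and 83.4 CPM in vehicle, erastin-R and RSL3-R libraries. GGCX differed from vehicle by -0.40 on the log2 scale in erastin survivors (edgeR adjusted p = 1.87e-04) and 0.25 in RSL3 survivors (edgeR adjusted p = 0.00612), the same signs as for MAT2A. No source used here says that strand was used in the counting. Reads from the shared stretch therefore cannot be told apart, and their part in either result was not tested.

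MAT2B, the regulatory subunit of the same enzyme, lies on chromosome 5 from 163503114 to 163519336 on the plus strand (ENSG00000038274). It had 92.9, 89.4 and 96.0 CPM in vehicle, 86.4, 97.2 and 95.2 CPM in erastin-R and 100.4, 85.7 and 97.1 CPM in RSL3-R libraries, and the 3 groups overlapped. Its log2 fold change was 0.00 in erastin survivors (95% interval -0.15 to 0.16) and 0.03 in RSL3 survivors (-0.13 to 0.18). The edgeR adjusted p values were 0.980 and 0.797, and without the first erastin-R library the value in erastin survivors was 0.05.

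AHCY, adenosylhomocysteinase, which splits S-adenosylhomocysteine into adenosine and homocysteine, fell in RSL3 survivors. It lies on chromosome 20 from 34280268 to 34311802 on the minus strand (ENSG00000101444). The vehicle libraries had 128, 122 and 118 CPM and the RSL3-R libraries 89.3, 89.4 and 89.2 CPM, while the erastin-R libraries spread from 110 over 147 to 155 CPM. RSL3-R libraries were below all others, and the first erastin-R library was below the vehicle range with the other 2 above it. In RSL3 survivors AHCY fell by 0.46 ± 0.10 on the log2 scale (edgeR adjusted p = 0.00172). In erastin survivors the log2 fold change was 0.16 (95% interval -0.05 to 0.37, edgeR adjusted p = 0.189), and without the first library it was 0.30 with an edgeR adjusted p of 1.45e-05, so the call for AHCY in erastin survivors turned on 1 library.

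MTR, methionine synthase, which methylates homocysteine back to methionine with cobalamin and a folate, rose in both survivor groups, by less than CTH. It lies on chromosome 1 from 236795281 to 236903981 on the plus strand (ENSG00000116984). It stood at 89.5, 90.8 and 89.6 CPM in vehicle, at 109, 95.8 and 103 CPM in erastin-R and at 108, 111 and 111 CPM in RSL3-R libraries. Every survivor library was above the vehicle range. The log2 fold change was 0.29 ± 0.06 in RSL3 survivors (edgeR adjusted p = 0.00142) and 0.19 ± 0.06 in erastin survivors (edgeR adjusted p = 0.0189). The call in erastin survivors was lost without any 1 of the vehicle libraries (edgeR adjusted p of 0.0598, 0.0543 and 0.0533) and without the filter on low counts (0.0716), and held without the first erastin-R library (log2 fold change 0.14, edgeR adjusted p = 0.0256).

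MPST, 3-mercaptopyruvate sulfurtransferase, which moves the sulfur of a cysteine product to thiols as persulfide, rose in erastin survivors. It lies on chromosome 22 from 37019635 to 37029822 on the plus strand (ENSG00000128309). The vehicle libraries had 44.1, 45.5 and 45.1 CPM, the erastin-R libraries 70.0, 87.8 and 88.1 CPM, and the RSL3-R libraries 48.0, 46.4 and 47.7 CPM. All erastin-R libraries were above all others, the first less so, and the RSL3-R libraries lay just above the vehicle range. The log2 fold change was 0.87 ± 0.09 in erastin survivors, a 1.83-fold increase (edgeR adjusted p = 1.50e-06, and 0.97 on the log2 scale without the first library). In RSL3 survivors it was 0.08 (95% interval -0.11 to 0.26, edgeR adjusted p = 0.484).

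The 3 genes of cysteine oxidation were low. SUOX, sulfite oxidase, which turns sulfite into sulfate in mitochondria, lies on chromosome 12 from 55997180 to 56006641 on the plus strand (ENSG00000139531). It stood at 14.3, 14.8 and 11.7 CPM in vehicle, at 10.9, 8.65 and 11.6 CPM in erastin-R and at 12.5, 12.3 and 9.94 CPM in RSL3-R libraries. The erastin-R libraries lay below the vehicle range, though by little, and the RSL3-R libraries overlapped it. SUOX fell by 0.39 ± 0.14 on the log2 scale in erastin survivors (edgeR adjusted p = 0.0345, and -0.43 on the log2 scale without the first erastin-R library), a call lost without the first or second vehicle library (0.0993 and 0.121), without the second erastin-R library (0.141) and with limma after quantile normalization (0.0625). In RSL3 survivors the log2 fold change was -0.23 (95% interval -0.54 to 0.08, edgeR adjusted p = 0.199).

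CSAD, cysteine sulfinate decarboxylase, which acts on the way to taurine, lies on chromosome 12 from 53157663 to 53180909 on the minus strand (ENSG00000139631). It had 13.8, 15.4 and 12.2 CPM in vehicle, 11.4, 11.8 and 12.9 CPM in erastin-R and 12.2, 12.7 and 11.2 CPM in RSL3-R libraries, with overlap between all groups. The log2 fold change was -0.20 in each survivor group, with 95% intervals of -0.45 to 0.06 in erastin-R and -0.45 to 0.05 in RSL3 survivors and edgeR adjusted p values of 0.175 and 0.179. Without the first erastin-R library the value in erastin survivors was -0.16. Of its exon bases, 6.61% overlap genes on the opposite strand, ZNF740 among them, whose reads cannot be told apart there. CDO1, cysteine dioxygenase, which starts cysteine oxidation, lies on chromosome 5 from 115804733 to 115816954 on the minus strand (ENSG00000129596). It had 1, 2 and 1 reads in vehicle, 0, 1 and 1 in erastin-R and 1, 0 and 0 in RSL3-R libraries, all under 3 counts, and was not tested.

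**Figure D2:**
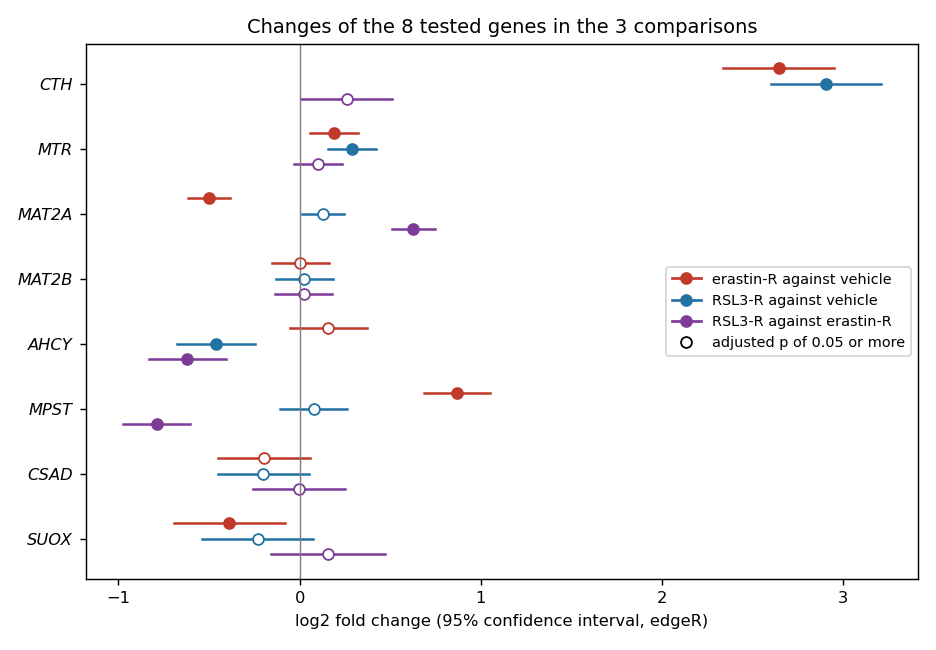
Log2 fold change of the 8 tested genes with its 95% confidence interval, derived from edgeR's test. Comparisons are erastin-R against vehicle (red), RSL3-R against vehicle (blue) and RSL3-R against erastin-R (purple). Filled points passed an adjusted p of 0.05 and open points did not. CTH stands at 2.64 and 2.90 in the 2 comparisons with vehicle, and every other point lies between -0.79 and 0.87.

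The survivor groups were also compared with each other, which does not use the vehicle libraries as a reference. Of the 8 genes, 1 was higher in RSL3-R than in erastin survivors (MAT2A), 2 were lower (AHCY and MPST) and 5 were not called, where 22.3% of all genes were higher and 26.9% lower. With a log2 fold change of at least 1 the background was 6.86% higher and 3.48% lower. Of the 8 genes 0 passed that rule by edgeR, DESeq2 or limma, and the unadjusted p passed 0.05 for 4 genes by edgeR, 4 by DESeq2 and 5 by limma. Libraries of the 2 groups did not overlap for 4 genes (CTH, AHCY, MAT2A and MPST), and 55.2% of all genes did not.

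MAT2A was higher in RSL3-R than in erastin survivors by 0.63 ± 0.05 on the log2 scale (edgeR adjusted p = 8.18e-07), with the overlapping GGCX higher by 0.65. AHCY differed by -0.62 ± 0.10 (edgeR adjusted p = 1.75e-04) and by -0.76 without the first erastin-R library. MPST differed by -0.79 ± 0.08 (edgeR adjusted p = 5.50e-06) and by -0.89 without that library. MAT2A thus was the higher and AHCY and MPST the lower in RSL3 survivors. The other 5 genes had log2 differences between -0.00 for CSAD and 0.26 for CTH. For MTR the difference was 0.10 (95% interval -0.03 to 0.23, edgeR adjusted p = 0.184), which became 0.14 with an edgeR adjusted p of 0.0236 without the first erastin-R library and also passed with limma.

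Levels of different genes were compared by the FPKM values the authors deposited, which divide by gene length. In vehicle cells MAT2A was highest at 58.6 ± 0.87 FPKM (SD, n = 3), followed by AHCY at 31.2 ± 1.21 and MAT2B at 17.8 ± 0.67. MTR had 7.83 ± 0.06 FPKM and MPST 6.57 ± 0.11. CSAD at 3.11 ± 0.36 and SUOX at 2.68 ± 0.33 did not differ beyond their spread, and CTH was the lowest tested gene at 1.64 ± 0.41. In erastin survivors CTH reached 10.2 ± 0.83 FPKM, between MTR at 8.89 ± 0.55 and MPST at 11.96 ± 1.56. Its range of mean ± SD overlapped that of each. In RSL3 survivors CTH reached 12.3 ± 0.65, above MTR at 9.60 ± 0.18. The mean ± SD ranges of MAT2A and AHCY, at 41.3 ± 1.91 and 34.8 ± 6.23 FPKM, overlapped in erastin survivors. CDO1 had a mean of at most 0.037 FPKM in any group.

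**Figure D3:**
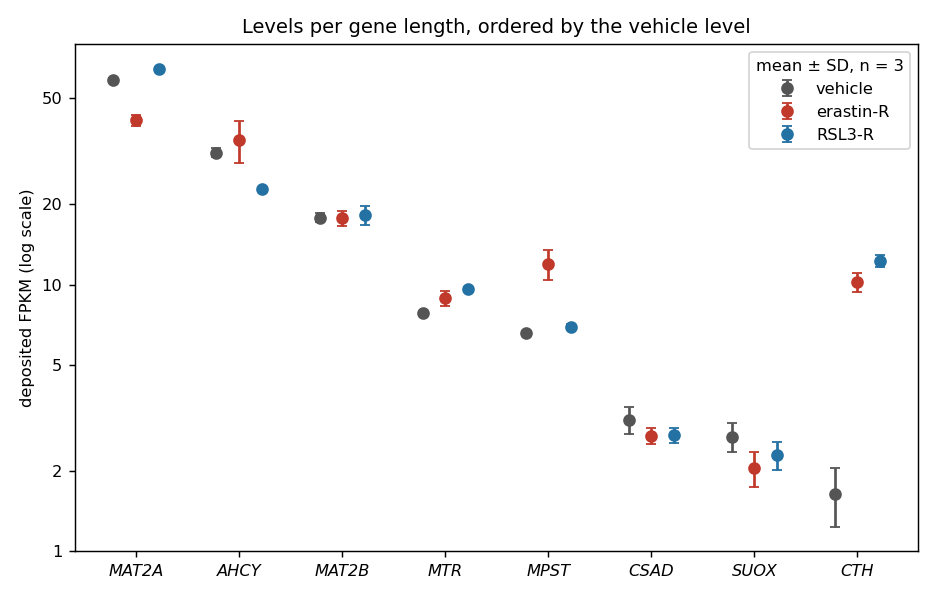
Deposited FPKM of the 8 tested genes on a log axis, as mean ± SD of 3 libraries, for vehicle (grey), erastin-R (red) and RSL3-R (blue) cells, ordered by the vehicle level. CTH is the lowest gene in vehicle cells at 1.64 FPKM and lies at 10.2 FPKM in erastin-R cells, between MTR and MPST, and at 12.3 FPKM in RSL3-R cells, above both.

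Around these 10 genes, 41 further genes of the pathway were read in 5 lists, of which 34 could be tested. In erastin survivors 12 of the 34 rose and 6 fell, and in RSL3 survivors 8 rose and 13 fell. As shares of the 34 these are 35.3% and 17.6%, and 23.5% and 38.2%, beside 27.1% higher and 26.8% lower of all genes in erastin survivors and 23.8% and 24.9% in RSL3 survivors, which is the background for each list as well. The median change of the 34 on the log2 scale was 0.10 in erastin survivors and -0.07 in RSL3 survivors, beside -0.00 and 0.01 over all genes. Without the first erastin-R library the calls in erastin survivors numbered 21 in place of 18. With a log2 fold change of at least 1, MMACHC was lower in erastin survivors, and GAMT and ADI1 were lower in RSL3 survivors. At that rule 6.66% of all genes were lower in erastin survivors and 4.08% in RSL3 survivors.

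Among the genes of remethylation and of the methionine cycle, 6 of 9 were tested, 4 rose in erastin survivors, and in RSL3 survivors 3 rose and 1 fell, where 27.1% of all genes were higher in the first comparison, and 23.8% higher and 24.9% lower in the second. The median log2 fold change of the list was 0.74 in erastin survivors and 0.27 in RSL3 survivors, beside -0.00 and 0.01 over all genes.

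Of 6 genes of cobalamin handling, which supply the cofactor of MTR, 2 fell in erastin survivors, and in RSL3 survivors 1 rose and 3 fell. MMACHC, which processes cobalamin on its entry into the cytosol, stood at 12.9, 14.7 and 14.2 CPM in vehicle, at 7.86, 6.68 and 6.08 CPM in erastin-R and at 10.8, 8.76 and 10.1 CPM in RSL3-R libraries. The 3 groups did not overlap, with erastin-R lowest. MMACHC fell by 1.02 ± 0.13 on the log2 scale in erastin survivors (edgeR adjusted p = 2.03e-05, and -1.13 without the first erastin-R library) and by 0.50 ± 0.13 in RSL3 survivors (edgeR adjusted p = 0.00544). The median of the list was -0.22 in erastin survivors and -0.19 in RSL3 survivors.

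Of the methyltransferases that spend S-adenosylmethionine on small molecules, 6 of 7 were tested, with 3 higher and 2 lower in erastin survivors and 2 higher and 2 lower in RSL3 survivors. GAMT, which makes creatine, stood at 52.8, 52.2 and 43.1 CPM in vehicle, at 31.7, 37.6 and 38.8 CPM in erastin-R and at 15.02, 19.1 and 20.2 CPM in RSL3-R libraries. The groups did not overlap, and RSL3-R was lowest. GAMT fell by 1.44 ± 0.12 on the log2 scale in RSL3 survivors (edgeR adjusted p = 3.77e-07) and by 0.45 ± 0.11 in erastin survivors (edgeR adjusted p = 0.00417, and -0.37 without the first erastin-R library). The median of the list was 0.12 in erastin survivors and -0.02 in RSL3 survivors.

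In polyamine synthesis and methionine salvage, 8 of 9 genes were tested. In erastin survivors 1 rose and 2 fell, and in RSL3 survivors 5 fell and 3 were not called, with list medians of -0.05 and -0.41. Of all genes, 26.8% were lower in erastin survivors and 24.9% in RSL3 survivors. ADI1, a dioxygenase of methionine salvage, stood at 58.1, 57.3 and 62.7 CPM in vehicle, at 42.8, 38.7 and 38.8 CPM in erastin-R and at 29.6, 28.7 and 29.2 CPM in RSL3-R libraries. The groups did not overlap. ADI1 fell by 1.03 ± 0.07 on the log2 scale in RSL3 survivors (edgeR adjusted p = 7.75e-08) and by 0.57 ± 0.07 in erastin survivors (edgeR adjusted p = 1.65e-05, and -0.62 without the first erastin-R library). MTAP, the phosphorylase that opens methionine salvage, is named after its values were seen: it had 0 reads in 8 libraries and 2 reads in the first RSL3-R library, while the other 8 genes of the list passed the filter.

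Of 10 genes of sulfide, cysteine and taurine metabolism, 8 were tested, 4 rose in erastin survivors, and in RSL3 survivors 2 rose and 2 fell. The median of the list was 0.20 in erastin survivors and -0.06 in RSL3 survivors. TST, which lies beside MPST and overlaps 0.09% of its exon bases, was measured at 21.4, 19.5 and 16.9 CPM on average in vehicle, erastin-R and RSL3-R libraries, with log2 fold changes of -0.14 and -0.34 that did not pass the test. Between the survivor groups, 5 of the 34 genes passed the test with a higher level in RSL3 survivors and 15 with a lower one, 14.7% and 44.1% of them, beside 22.3% and 26.9% of all genes.

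**Figure D4:**
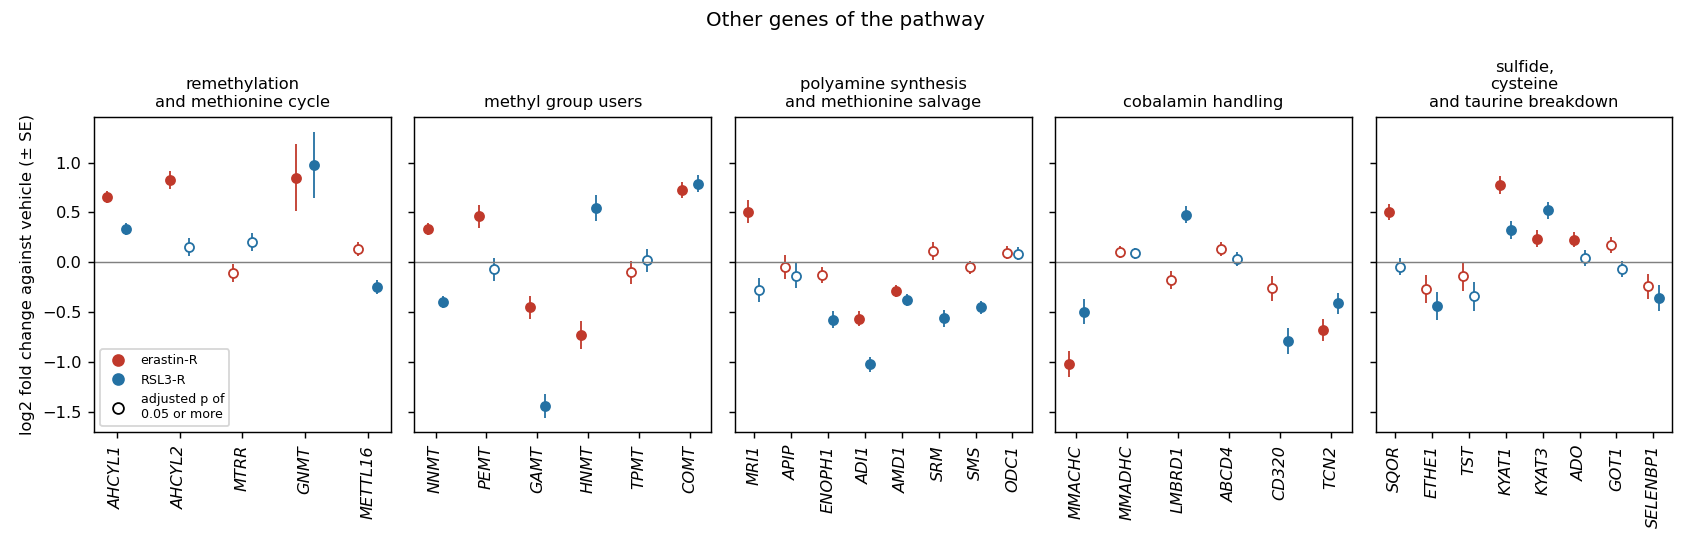
Log2 fold change against vehicle, with its SE, of 33 of the tested genes of the 5 lists, in erastin-R (red) and RSL3-R (blue) cells. Filled points passed an adjusted p of 0.05. MMACHC at -1.02 and -0.50, GAMT at -0.45 and -1.44 and ADI1 at -0.57 and -1.03 are the genes plotted that reach a log2 fold change of 1 in size.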

How the data were processed

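RNA-Seq counts of MDA-MB-231 cells were analysed in 9 libraries, 3 per group, grouped by the treatment in the labels. Per the methods, poly(A) RNA was selected with oligo(dT), and uniquely mapped exonic reads were used. The submitters' processing notes list HISAT2 2.0.5 and featureCounts 1.5.0-p3. The authors deposited raw counts per gene and FPKM values made from them (RPKM in the methods). Coordinates match GENCODE 29 on GRCh38. Whether counting used strand is not given in the sources used here.

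Counts were normalized by TMM and tested with edgeR 4.0.16 (filterByExpr, quasi-likelihood test, 1 model of 9 libraries, no covariate) in R 4.3.3. P values were adjusted by Benjamini-Hochberg over the 16188 genes tested, and calls were made at an adjusted p of 0.05, and separately with an absolute log2 fold change of 1. The dispersion common to all genes was 0.00732 (coefficient of variation 8.56%), and total counts are given in the results. FPKM values were used, without a test, to compare levels between genes. Log2 CPM for correlations used a prior count of 2. The scripts were tested on simulated data.

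The members and lists were chosen with earlier results of these data known. Named were all 10 members, other pathway genes called with a log2 fold change of 1 against vehicle, the 3 genes most correlated with CTH over the libraries, and overlap partners and markers. The values of 1 gene that this rule covers are not reported here, and it stays in the counts and medians. Shared 50-base words and exon overlaps came from GENCODE 29, and promoters from RefSeq. Replicate numbers did not pair libraries: after removing group means, the mean correlation was -0.0021 for 9 pairs of the same number and 0.0011 for 18 others. Alternatives were no filter, RLE size factors, DESeq2 1.42.0, limma 3.58.1 after quantile normalization, a 2-group model, a replicate block, each library left out, and 2 fold thresholds. Those for the pathway lists and genes were added after the data were seen. The labels were read with jsonlite 2.0.0, and figures drawn with matplotlib 3.10.9 under Python 3.11.15.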

Additional observations from a re-analysis of the deposited data

Results flagged for a closer look

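The effects of the 2 survivor groups against vehicle differed by the direct comparison of RSL3-R with erastin-R libraries for 3 of the 8 tested genes. The log2 fold change of AHCY was 0.16 for erastin survivors and -0.46 for RSL3 survivors, a difference of -0.62 (edgeR adjusted p = 1.75e-04). That of MAT2A was -0.50 for erastin survivors and 0.13 for RSL3 survivors, a difference of 0.63 (edgeR adjusted p = 8.18e-07). That of MPST was 0.87 for erastin survivors and 0.08 for RSL3 survivors, a difference of -0.79 (edgeR adjusted p = 5.50e-06). Of the other pathway genes named above for a log2 fold change of at least 1, GAMT differed by -0.99 (edgeR adjusted p = 1.87e-05). ADI1 differed by -0.46 (edgeR adjusted p = 1.75e-04) and MMACHC by 0.52 (edgeR adjusted p = 0.00554). Both comparisons with vehicle use the same 3 vehicle libraries.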

How the results depend on the processing

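CTH was called in both comparisons with vehicle under all 15 alternatives, with log2 fold changes of 2.52 to 2.86 in erastin-R and 2.78 to 3.12 in RSL3-R cells. The genes called numbered 5 in erastin-R cells, 3 in RSL3-R cells and 3 between the survivors, and 1, 1 and 0 when a log2 fold change of 1 was also required, whether with the adjusted or the unadjusted p. Leaving out 1 library gave 3 to 6, 3 to 4 and 3 to 4, with 3 in erastin-R cells without the first or second vehicle library, and limma after quantile normalization gave 5 between the survivors. Of the other pathway genes 18, 21 and 20 were called, and 1, 3 and 1 with that fold change under either p. The shares of all genes called by the adjusted p, with and without that fold change, are given in the results. Leaving out 1 library gave 16 to 21, 18 to 24 and 18 to 22. With the replicate block, 5, 3 and 3 of the genes and 17, 21 and 20 of the other pathway genes were called, and no member's call changed. Values near 0 changed sign. MAT2B in erastin-R cells was -0.00544 without the filter, -0.00271 with DESeq2, -0.0234 with limma and -0.0311 to 0.0511 with 1 library left out. Leaving out 1 library gave MAT2B -0.00488 to 0.0893 in RSL3-R cells and -0.0287 to 0.0893 between the survivors. CSAD between the survivors was 0.0125 with RLE factors, 0.00591 with DESeq2, 0.0346 in the 2-group model and -0.0462 to 0.0856 with 1 library left out. Calls gained were MAT2A in RSL3-R cells with RLE factors, DESeq2, the 2-group model and without the first erastin-R library (adjusted p of 0.0407, 0.0408, 0.00461 and 0.00784), AHCY in erastin-R cells without that library (1.45e-05), MTR between the survivors with limma and without that library (0.0162 and 0.0236), and CTH between the survivors with limma, the 2-group model and without the third vehicle library (0.0143, 0.0257 and 0.0358). The causes were not tested. A test planned for the sum of CBS and CBSL was not run, as each had at most 1 read in any library.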
